A study of Arabidopsis thaliana with 18 samples.

Results

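AT1G26380 and AT1G26420 are Arabidopsis thaliana genes for berberine bridge enzyme-like oxidases, and their probe sets were followed across whole seedlings of 3 genotypes at 2 ages. They are 2 of 13356 genes for which a probe set named 1 gene. A gene is called measured here where a probe set named it alone. Listed genes without such a probe set were left out whatever their signal. The pair was chosen by its signals in vte2 against WT seedlings at day 3, where both were high in vte2, so that every value from the vte2 and WT arrays of day 3 is given for them as a description, without a test. The groups were vte2-1 (vte2), vte1-1 (vte1) and wild type (WT), all of the Col-0 strain (Columbia-0), each sampled after 3 days or 1 day at 22 °C that followed 5 days at 6 °C. Both mutants lack tocopherols, the lipid antioxidants known as vitamin E. vte2 lacks the enzyme that makes the first committed intermediate, and vte1 lacks the cyclase that acts later and keeps a quinol precursor. All groups were grown on agar plates with Murashige and Skoog salts under 1 light regime, each mutant was represented by 1 allele, and each RNA sample came from many seedlings frozen together. Each of the 6 groups had 3 arrays that the titles call biological replicates. Nothing in the labels says that they came from separate cultures, so the p-values measure the spread between these samples.

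Berberine bridge enzyme-like proteins are flavin-dependent oxidases, most of them secreted, that bind FAD covalently and pass electrons to oxygen, which yields hydrogen peroxide. In Arabidopsis they form a family with several tandem gene clusters. AT1G26380, also called FOX1, acts in the pathogen-induced pathway that turns indole-3-acetaldoxime, a tryptophan derivative, into 4-hydroxyindole-3-carbonyl nitrile. Other members oxidise cell wall fragments: AT4G20830 (OGOX1) takes oligogalacturonides and AT4G20860 (CELLOX) takes cellodextrins, while AT1G30760 oxidises monolignols, the building units of lignin. AT1G26420 lies in the same cluster as AT1G26380 and is named here as a family gene alone.

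The values are deposited Affymetrix ATH1 signals, 1 per probe set and array, on a linear scale with no unit of their own. The 18 arrays had nearly the same trimmed mean (500 to 500.1) and medians of 122 to 181. The labelled whole seedlings were checked with marker genes. The sum of 5 measured green tissue markers ran from 98650 to 120634 in vte2, 110930 to 153556 in vte1 and 163652 to 225466 in WT at day 3. At day 1 it ran from 24339 to 28142 in vte2, 9164 to 16919 in vte1 and 20248 to 21710 in WT. Replicate 3 had the lowest ratio of 3′ to 5′ GAPDH signal in all 6 groups. This measure of RNA integrity rises where RNA is degraded.

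AT1G26380 was bright in vte2 seedlings at day 3 and dim on the other 15 arrays. Replicates 1, 2 and 3 of vte2 at day 3 had signals of 1043, 1131.5 and 1404.8, against 53.7, 69.5 and 14.9 in vte1 and 63.7, 3.4 and 83 in WT at the same day. At day 1 the signals were 52, 32.5 and 226.5 in vte2, 11, 30.2 and 100.3 in vte1 and 108.8, 35.7 and 82.6 in WT. All 3 vte2 arrays of day 3 lay above all others, as in 2.29% of all probe sets, and the remaining groups overlapped with each other. The lowest vte2 signal of day 3 was 4.6 times the highest signal of the other 15 arrays, which came from vte2 replicate 3 at day 1, and 12.6 times the highest WT signal of day 3. Ranked among all probe sets of its own array, AT1G26380 stood at the 85.5th to 89th percentile in vte2 at day 3 and between the 3.33rd and 56.6th percentiles elsewhere.

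AT1G26420 had the same shape. In vte2 at day 3 its signals were 495.8, 547.2 and 568.3, against 78.8, 52.8 and 30.4 in vte1 and 40.1, 3.5 and 2.4 in WT. At day 1 they were 1.6, 5.6 and 136.5 in vte2, 21.8, 2.7 and 103.3 in vte1 and 56.6, 23.5 and 88.5 in WT. Again the 3 vte2 arrays of day 3 stood apart from every other array. Their lowest signal was 3.63 times the highest of the other 15 arrays and 12.4 times the highest WT signal of day 3. Its percentile within the array was 72.5 to 75.5 in vte2 at day 3 and 0.811 to 47.2 elsewhere.

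**Figure D1:**
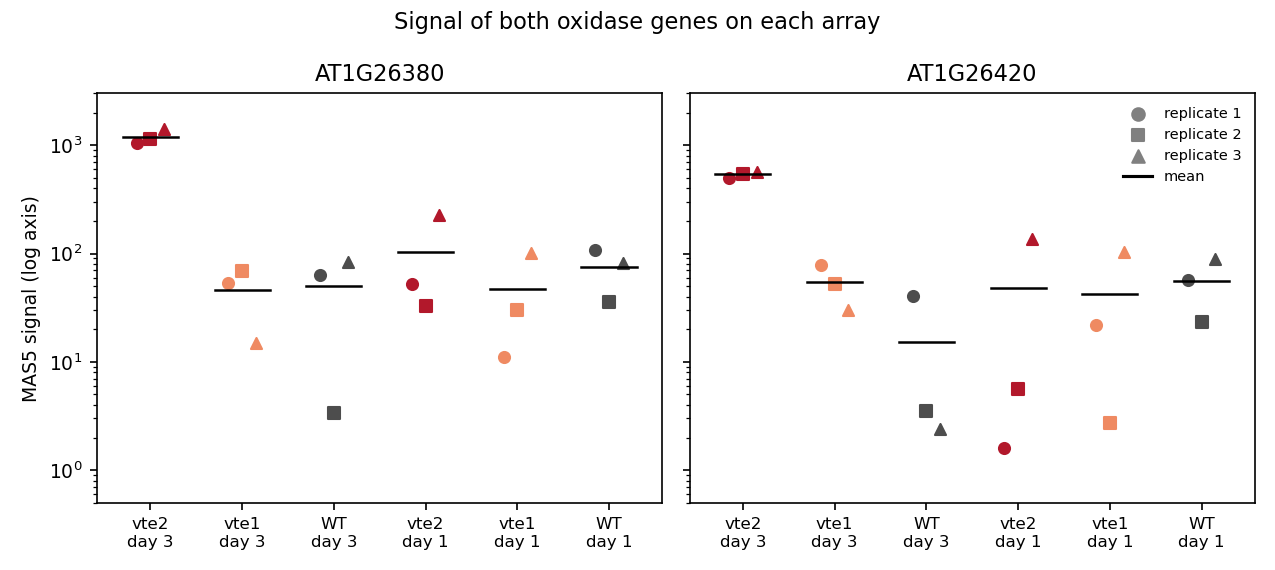
MAS5 signal (log axis) of AT1G26380 and AT1G26420 on each of the 18 arrays, by genotype and day; symbols give the replicate number and bars the mean of 3 arrays. The vte2 day 3 arrays lie at 1043 to 1404.8 and at 495.8 to 568.3, above all 15 other arrays of each gene.

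In order of their means, the groups of AT1G26380 were vte2 at day 3 (1190 ± 189, SD, n = 3 as for all group means), vte2 at day 1 (104 ± 107), WT at day 1 (75.7 ± 37), WT at day 3 (50 ± 41.5), vte1 at day 1 (47.2 ± 47) and vte1 at day 3 (46 ± 28.1). For AT1G26420 the order was vte2 at day 3 (537 ± 37.3), WT at day 1 (56.2 ± 32.5), vte1 at day 3 (54 ± 24.2), vte2 at day 1 (47.9 ± 76.8), vte1 at day 1 (42.6 ± 53.4) and WT at day 3 (15.3 ± 21.5). Below the first place the order carries little: all 10 pairs among the 5 other groups overlapped, for each gene. In whole seedlings, fewer cells of a type and less RNA per cell cannot be told apart.

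Differences between groups are given as log2(signal + 22) differences, with their SE, from 1 limma model of all 18 arrays. The added 22 signal units damp the differences of dim genes. At day 3 the difference between vte2 and WT was 4.30 ± 0.60 for AT1G26380 and 4.05 ± 0.65 for AT1G26420, and that between vte2 and vte1 was 4.25 ± 0.60 and 2.93 ± 0.65. Between vte1 and WT it was 0.05 ± 0.60 and 1.12 ± 0.65. From day 1 to day 3 the difference was 3.59 ± 0.60 and 3.57 ± 0.65 in vte2, and -0.60 ± 0.60 and -1.12 ± 0.65 in WT. Across all 15922 probe sets kept by a filter on low signals, 2.34% were called between vte2 and WT at day 3, that is, had an adjusted p under 0.05 (limma, Benjamini-Hochberg). AT1G26420 passed that filter only through its vte2 signals of day 3, with a mean log2 value of 6.31 over all arrays and 5.74 without them, against a limit of 6.03; AT1G26380 passed either way.

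Comparisons between groups other than vte2 and WT of day 3 were tested, and neither gene was called in any of the 4. The estimate of the spread still came from all 18 arrays. At day 1 the log2 difference between vte2 and WT was 0.11 for AT1G26380 (95% interval -1.14 to 1.37, adjusted p = 1, limma) and -0.65 for AT1G26420 (-2 to 0.71, adjusted p = 1), where 0.0942% of probe sets were called. Between vte1 and WT it was -0.64 (-1.89 to 0.62, adjusted p = 0.79) and -0.51 (-1.87 to 0.84, adjusted p = 0.86), with 2.09% of probe sets called. These intervals allow folds of 0.453 to 2.59 for AT1G26380 and 0.25 to 1.64 for AT1G26420 between vte2 and WT, so the 3 arrays per group do not show that the genotypes were alike at day 1.

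Between vte2 and vte1 at day 1 the difference was 0.75 for AT1G26380 (-0.51 to 2.01, adjusted p = 0.59) and -0.13 for AT1G26420 (-1.49 to 1.23, adjusted p = 0.95), with 5.22% of probe sets called. From day 1 to day 3 in vte1, in which 53.3% of probe sets were called, it was 0.09 (-1.16 to 1.35, adjusted p = 0.91) and 0.51 (-0.84 to 1.87, adjusted p = 0.53). Because AT1G26420 was in that fit only through its vte2 signals of day 3, it was also tested without a filter, with adjusted p = 1 (vte2 against WT), 0.92 (vte1 against WT), 0.97 (vte2 against vte1) and 0.58 (vte1 between the days), limma. With no filter and only the arrays of the 2 groups compared in the fit, these were 1, 0.91, 0.98 and 0.55.

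The highest day 1 signal of AT1G26420 was that of replicate 3 in all 3 genotypes, and for AT1G26380 in both mutants. Without replicate 3 in any group, AT1G26420 was called between day 3 and day 1 of vte1, with a log2 difference of 1.40 (adjusted p = 0.029, and 0.03 without a filter, limma). It was the single call of the pair among 148 values of these comparisons under other settings, and likewise 1 of 68 for AT1G26420 and 0 of 68 for AT1G26380 without a filter. In vte2 at day 1, replicate 3 also had the largest sum of 2 root hair expansin signals (4760, against 436 in the lowest array of that group). The part of root material or RNA integrity in the spread of the 2 oxidase genes was not tested.

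The genes on either side of the pair were examined next. In the RefSeq gene order (assembly TAIR10.1, used for names and order alone), AT1G26380 and AT1G26420 are the ends of a run of 5 family genes, and all 5 had a probe set. Those of AT1G26390, AT1G26400 and AT1G26410 lay below the filter on low signals and were tested in the same model without a filter, in which 1.42% of 22746 probe sets were called higher in vte2 and 0.391% lower, relative to WT of day 3.

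AT1G26390 rose in vte2 seedlings at day 3. Its signals there were 455, 360 and 689.9, against 76.8, 4.6 and 45.1 in vte1 and 15.3, 7.4 and 4.1 in WT. At day 1 they were 1, 16.7 and 23.5 in vte2, 19.3, 15.3 and 20.6 in vte1 and 2.6, 0.8 and 3.1 in WT. The vte2 arrays of day 3 lay above all others, the lowest at 4.69 times the highest of the other 15. The log2 difference was 4.05 ± 0.41 from WT (adjusted p = 6.92e-06, limma), 3.17 ± 0.41 from vte1 (adjusted p = 0.00013) and 3.88 ± 0.41 from vte2 at day 1 (adjusted p = 6.96e-07). Since most of the other signals were near or below the 22 units added, its size depends on them: the difference from WT was 5.21 with 5 units added and 2.43 with 100, and it was called in both.

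AT1G26410 also rose, with signals of 270.8, 192.3 and 381.4 in vte2 at day 3, against 13.9, 13.1 and 5.4 in vte1 and 6.2, 13.8 and 3.4 in WT. At day 1 it had 4, 35.9 and 48.8 in vte2, 5.2, 32.4 and 91.9 in vte1 and 22.8, 25.7 and 80.1 in WT. No vte2 array of day 3 overlapped with another group. The log2 difference was 3.32 ± 0.48 from WT (adjusted p = 0.00043, limma), 3.17 ± 0.48 from vte1 (adjusted p = 0.00067) and 2.63 ± 0.48 from vte2 at day 1 (adjusted p = 0.0003). The difference from WT was 4.51 with 5 units added and 1.79 with 100, called in both. Without replicate 2 in any group the difference was 3.68 from WT (adjusted p = 0.05) and 3.45 from vte1 (adjusted p = 0.067), and neither was called.

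AT1G26400, the middle gene of the run, was not called. It had signals of 4.4, 36.5 and 40.3 in vte2 at day 3, against 5.7, 3.1 and 1.2 in vte1 and 8.4, 6.1 and 22.1 in WT. The vte2 and WT arrays overlapped, and the log2 difference was 0.45 ± 0.38 (adjusted p = 0.71, limma). Its highest signal on any array was 40.3, so the probe set was dim throughout, and a change below its sensitivity would not be seen. Tandem copies can be alike in sequence, and no probe sequences were used here, so signal that one probe set takes from transcripts of a neighbour cannot be told apart from its own.

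**Figure D2:**
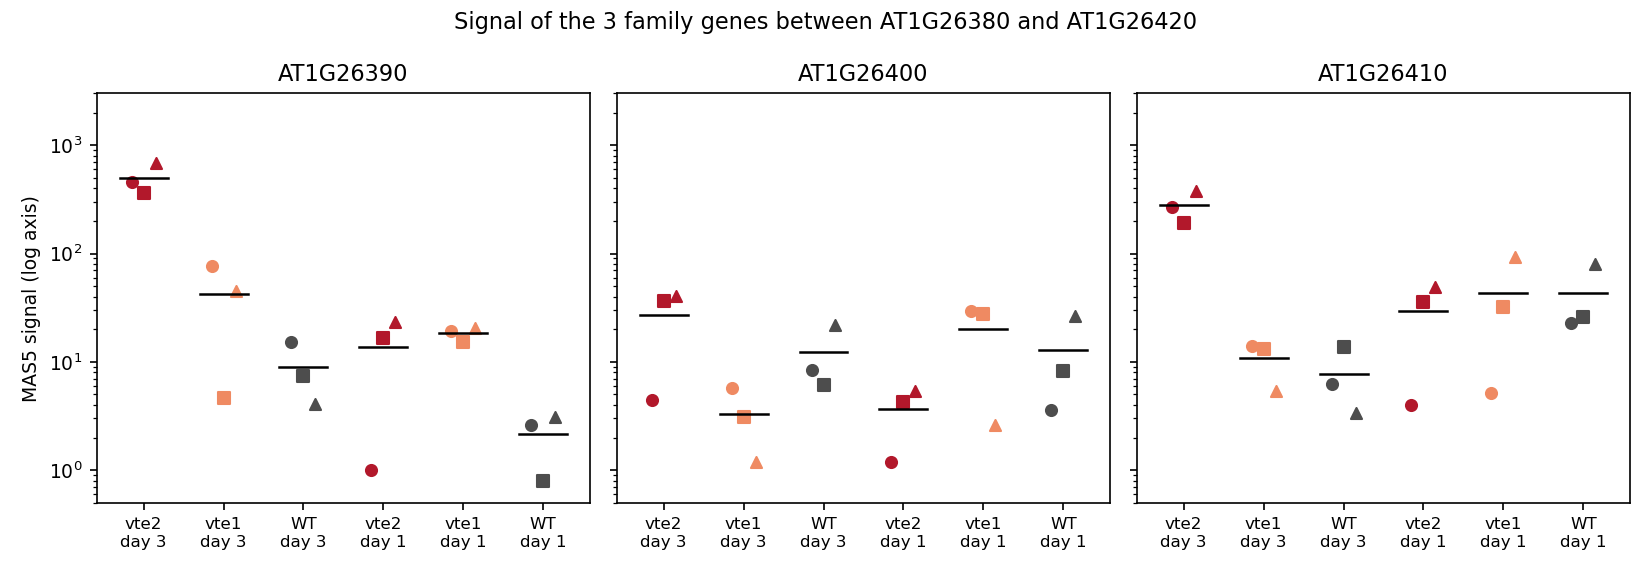
MAS5 signal (log axis) of AT1G26390, AT1G26400 and AT1G26410 on each array, by genotype and day; circles, squares and triangles are replicates 1, 2 and 3 and bars are means of 3 arrays. The vte2 day 3 arrays stand above all others for AT1G26390 (360 to 689.9) and AT1G26410 (192.3 to 381.4) but not for AT1G26400 (4.4 to 40.3).

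Genes just outside the run were then taken as neighbours, a choice made after the values of the run had been seen. Of the 6 genes on each side, 5 of 12 were measured: AT1G26330, AT1G26350, AT1G26450, AT1G26460 and AT1G26500. None was called in vte2 against WT at day 3 by limma, and 1 of them, AT1G26330, had an unadjusted p under 0.05 (log2 difference 0.90, adjusted p = 0.32). Its vte2 signals at day 3 (44.3, 48.8 and 25.1) were dim but lay above those of WT (4.6, 19.4 and 9), as in 8.63% of all probe sets. The other 4 genes lay between -0.45 and 0.42. AT1G26350 and AT1G26500 were below the filter on low signals, so a change below their sensitivity would not be seen. In vte1 against WT the 5 genes ranged from -0.21 to 0.37. The pair was chosen by this contrast, so its place above these 5 genes was set by that choice. Of the genes between the pair, AT1G26390 and AT1G26410 also lay above all 5. AT1G26400 lay below AT1G26330 and above the other 4.

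**Figure D3:**
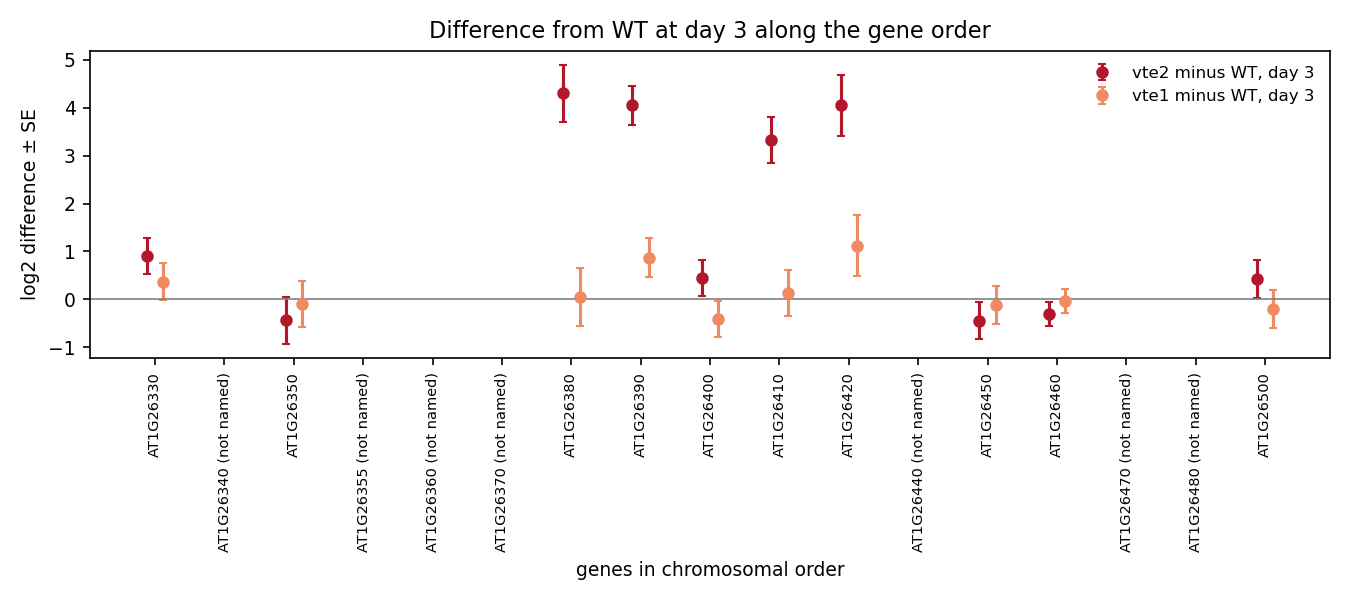
Log2 difference from WT at day 3 (points, with SE bars) for vte2 and vte1, with genes in chromosomal order and equal spacing; genes marked "not named" had no probe set naming them alone. AT1G26380 and AT1G26420, chosen by the vte2 contrast, and AT1G26390 and AT1G26410 lie between 3.32 and 4.30 in vte2. The 5 measured outer genes lie between -0.45 and 0.90, and AT1G26400 lies within that range.

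Across the wider family, 22 of 27 listed genes were measured, 20 besides the pair. In vte2 against WT at day 3, 3 of these 20 rose and none fell in the model without a filter: AT1G26390, AT1G26410 and AT5G44390. In that model 1.42% of all probe sets were called higher and 0.391% lower. The median log2 difference of the 20 was 0.56, beside -0.03 over all probe sets, and 9 of the 20 had an unadjusted p under 0.05, as 12.4% of all probe sets did. Of the 9 that passed the filter, none was called by limma, where 2.34% of the probe sets kept were. Their median was 0.21, beside 0 over all probe sets kept. In vte1 against WT at day 3 none of the 20 was called, where 0.198% of probe sets were, and 3 had an unadjusted p under 0.05, beside 9.84% of all probe sets.

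AT5G44390 lies on another chromosome than the pair. Its signals were 256.1, 156.4 and 308.3 in vte2 at day 3, against 56, 78.5 and 73.6 in vte1 and 57.3, 9.4 and 64 in WT. The vte2 arrays lay above all others, with a log2 difference from WT of 2.09 ± 0.44 (adjusted p = 0.015, limma) and from vte1 of 1.48 ± 0.44 (adjusted p = 0.088). The call against WT was kept under 10 of 17 other settings and lost, for example, without WT replicate 2 (1.62, adjusted p = 0.1) and without vte2 replicate 1 (2.02, adjusted p = 0.066) or 3 (1.90, adjusted p = 0.084) at day 3.

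**Figure D4:**
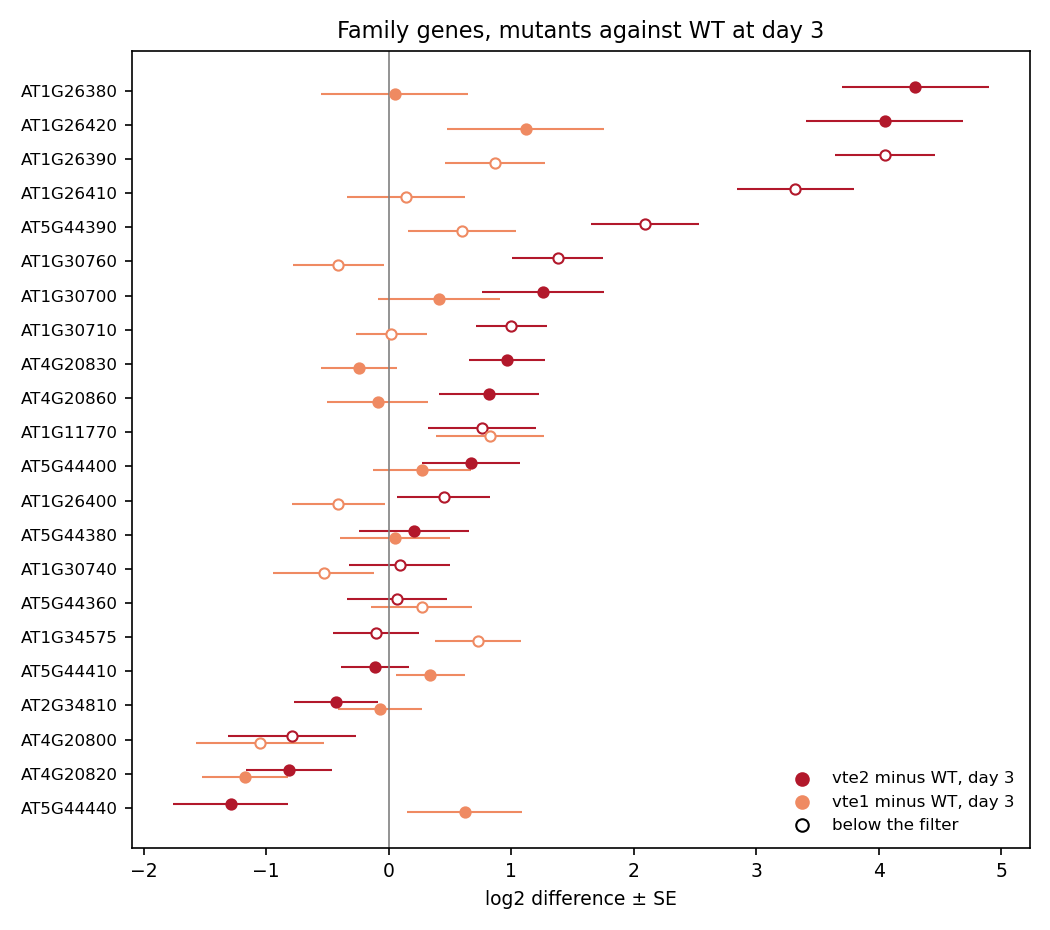
Log2 difference from WT at day 3 (points, with SE bars) of the 22 measured family genes in vte2 and vte1; open points are genes below the filter on low signals. The pair, AT1G26390 and AT1G26410 lie above 3 in vte2, AT5G44390 at 2.09 and AT5G44440 at the low end with -1.29.

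The oxidases of cell wall fragments and monolignols were higher in vte2 than in vte1 or not called. AT4G20830, the oligogalacturonide oxidase, had signals of 965.3, 1290.7 and 1180.4 in vte2 at day 3, against 481.6, 431.6 and 530.6 in vte1 and 771.8, 768 and 310.7 in WT. It rose in vte2 relative to vte1 (1.21 ± 0.32, adjusted p = 0.039, limma, where 2.53% of probe sets kept were called higher and 0.986% lower) and was not called relative to WT. Its call was lost when any 1 of the 6 arrays compared was left out (adjusted p = 0.066 to 0.15). AT4G20860, the cellodextrin oxidase, had 2261, 2043.8 and 2962 in vte2 at day 3, against 1381.4, 1156.2 and 1532.3 in WT, a log2 difference of 0.82 that was not called. AT1G30760, the monolignol oxidase, had 278.6, 240.3 and 374.2 in vte2, against 53.8, 114.1 and 52.4 in vte1 and 137.9, 98 and 71.1 in WT. It rose relative to vte1 (1.78 ± 0.37, adjusted p = 0.0096) and was not called relative to WT (1.38 ± 0.37, adjusted p = 0.062). The call against vte1 was lost under 4 of 17 other settings: without vte1 replicate 1 of day 3 (1.65, adjusted p = 0.059), without replicate 1 (1.68, adjusted p = 0.26) or 2 (2.20, adjusted p = 0.13) in all groups, and with 5 units added (2.01, adjusted p = 0.11).

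Of the 20 genes, 14 had a positive difference between vte2 and vte1 at day 3, and 1 of the other 6 was called. This gene, AT5G44440, had signals of 113.4, 33.1 and 73.1 in vte2 at day 3, against 215.5, 242.8 and 577 in vte1 and 267, 170.1 and 166.2 in WT. The vte2 arrays lay below all arrays of both other genotypes. Of the probe sets kept, 9.48% lay so below WT and 13.8% below vte1. The difference of AT5G44440 from vte1 was -1.91 ± 0.47 (adjusted p = 0.026, limma). Its call against vte1 was kept under 11 of 19 other settings. The adjusted p (limma) was 0.13 without vte1 replicate 3 of day 3 and 0.14 without vte2 replicate 2. Without a filter, 4 of the 20 genes rose and 1 fell in vte2 relative to vte1 at day 3, where 1.97% of probe sets were called higher and 0.58% lower.

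In 7 of these 20 genes all 3 vte2 arrays of day 3 lay above the 15 other arrays (2.29% of all probe sets). They were AT1G26390, AT1G26410, AT1G30700, AT1G30710, AT1G30760, AT4G20830 and AT5G44390. The margins differed: the lowest vte2 signal was 4.69 times the highest of the other arrays for AT1G26390, 2.09 times for AT1G26410, 1.99 times for AT5G44390 and 1.74 times for AT1G30760. For AT1G30700 and AT4G20830 it was 1.19 and 1.03 times. AT1G30710 was dim, with 35.3, 27.4 and 19.1 in vte2 at day 3 and at most 17.6 elsewhere, so that its order carries little. At day 1 no gene of the 20 was called between any 2 genotypes, with 1 unadjusted p under 0.05 in vte2 against WT, 1 in vte2 against vte1 and 0 in vte1 against WT. Without a filter, limma called 0.0659%, 3.12% and 1.37% of all probe sets in these 3 comparisons, and 3.17%, 13.2% and 9.2% had an unadjusted p under 0.05.

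Most family genes that passed the filter rose with age in every genotype, and neither gene of the pair was called between the days in vte1. Among the 9 genes that passed the filter, 7 rose from day 1 to day 3 in vte2, 6 in vte1 and 6 in WT, and none fell. Of the probe sets kept, 21.7% rose and 18.5% fell in vte2, 30% and 23.4% in vte1 and 24.6% and 22.8% in WT. Without a filter, 12 of the 20 genes rose in vte2, 8 in vte1 and 7 in WT. The shares of all probe sets that rose were then 15.8%, 21.8% and 18%. AT4G20820 had mean signals in vte2 of 106 ± 18.4 at day 3 and 15 ± 6.64 at day 1, in vte1 of 78.6 ± 19.6 and 6.67 ± 7.91, and in WT of 207 ± 64 and 23.6 ± 18.8. Its log2 rise was 1.80, 1.83 and 2.37 in vte2, vte1 and WT (adjusted p = 0.00064, 0.00034 and 3.02e-05, limma). AT4G20820 was highest in WT at day 3, but it passed the filter only with the vte2 arrays of day 3 included. Without a filter its adjusted p-values were 0.00061, 0.00032 and 2.45e-05 in the same order (limma). AT2G34810 and AT5G44400 also rose in all 3 genotypes, by 1.74 to 2.02 on the log2 scale.

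Some genes of the family rose by unequal amounts. AT1G30700 rose by 3.29 in vte2, 2.65 in vte1 and 1.56 in WT, but the change of the difference between vte2 and WT (1.73 ± 0.73) was not called (adjusted p = 0.63, limma). AT5G44440 rose by 3.46 in vte1 and by 1.87 in WT, whereas in vte2 the difference was 0.88 and not called. Its vte2 minus vte1 difference changed between the days by -2.57 ± 0.66 (adjusted p = 0.028), where 5.29% of the probe sets kept were called. Its vte2 minus WT difference changed by -0.99 ± 0.66, which was not called (adjusted p = 0.9, limma). For the genes next to the pair the change of the vte2 minus WT difference was positive and called. It was 3.54 ± 0.58 for AT1G26390 (adjusted p = 0.015) and 3.66 ± 0.68 for AT1G26410 (adjusted p = 0.027), where 0.189% of all probe sets were called.

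**Figure D5:**
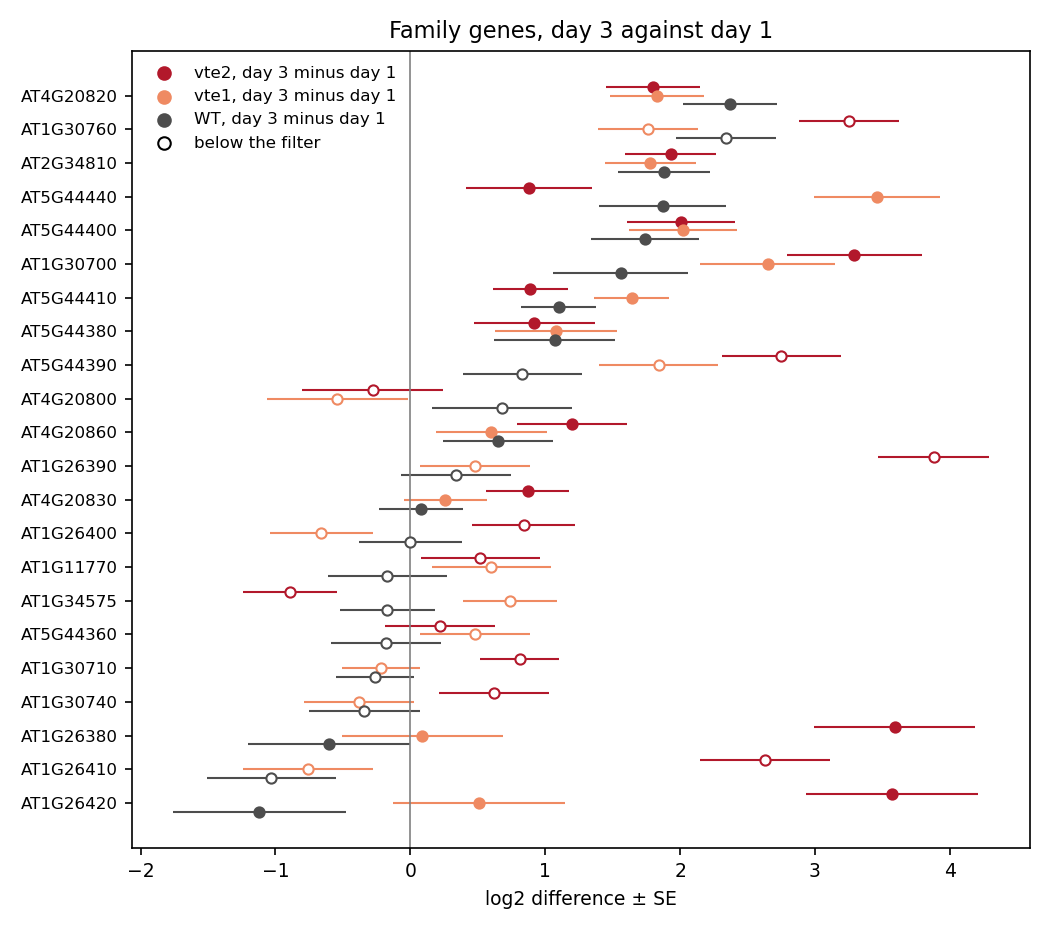
Log2 difference of day 3 minus day 1 (points, with SE bars) for the 22 measured family genes in vte2, vte1 and WT; open points are genes below the filter. AT4G20820, AT2G34810 and AT5G44400 rose by 1.74 to 2.37 in all 3 genotypes, while AT1G26380, AT1G26390, AT1G26410 and AT1G26420 lie far right of 0, at 2.63 to 3.88, in vte2, and between -1.12 and 0.51 in vte1 and WT.

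Tryptophan is the precursor from which the pathway of AT1G26380 starts, and 2 of 13 listed genes of its synthesis were measured. AT2G04400, an indole-3-glycerol phosphate synthase gene, had signals of 1676, 1511.4 and 2237.5 in vte2 at day 3, against 901.4, 860.4 and 749.3 in vte1 and 599.8, 488 and 497 in WT. The 3 genotypes did not overlap. Of the probe sets kept, all vte2 arrays lay above all WT arrays in 10.3% and above all vte1 arrays in 11.1%. All vte1 arrays lay above all WT arrays in 9.57%. The difference from WT was 1.72 ± 0.23 (adjusted p = 0.00018, limma), where 1.75% of the probe sets kept were called higher and 0.59% lower, and that from vte1 was 1.08 ± 0.23 (adjusted p = 0.011). Without replicate 2 in all groups they were 1.79 (adjusted p = 0.067) and 1.21 (adjusted p = 0.26), and without replicate 1 the difference from vte1 was 1.17 (adjusted p = 0.23). From day 1 to day 3 it fell by 1.65 on the log2 scale in WT and by 0.89 in vte1, and was not called in vte2 (0.28 ± 0.23, adjusted p = 0.34). AT4G02610, the other measured gene, was not called in vte2 against WT at day 3 (0.41 ± 0.27) and fell with age in all 3 genotypes.

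Of 20 listed genes of indole glucosinolate and phytoalexin synthesis, 1 had a probe set that named it alone. The others were left out for want of such a probe set, and nothing is said here of their signals. UGT74B1 (AT1G24100), a glucosyltransferase of glucosinolate synthesis, had 699.6, 586.1 and 573.9 in vte2 at day 3, against 731.8, 553.8 and 500.3 in vte1 and 412.6, 263.7 and 305.3 in WT. Its difference of 0.90 ± 0.23 from WT passed the test (adjusted p = 0.046, limma) but lost the call under 13 of 19 other settings. The enzymes that act directly before and after AT1G26380 were not analysed here.

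Genes whose pattern was most like that of the pair were ranked by Pearson's r with each member over the 18 arrays. The scale was log2(signal + 22), and r over the 15 arrays other than vte2 at day 3 is given beside it. Ranked were the probe sets kept by the filter that named 1 gene, with the pair left out. The filter counted the vte2 arrays of day 3. AT1G65500, AT4G12490 and AT3G54150 passed it only through those arrays, so their presence in the lists below rests on them. AT1G26390 and AT1G26410 lay below the filter and were therefore not ranked. The points share their arrays and the contrast that singled out the pair, so r is a description. For AT1G26380 the 8 genes at the top were AT3G25610 (r = 0.937, and 0.749 over 15 arrays), CYP71B6 (0.91 and 0.52), AT4G39670 (0.906 and 0.81), AT1G13990 (0.899 and 0.425), WRKY6 (0.897 and 0.739), AT3G16530 (0.896 and 0.599), AT4G12490 (0.886 and 0.25) and AT1G65500 (0.873 and 0.0835). For AT1G26420 they were AT4G38540 (0.888 and 0.631), WRKY6 (0.866 and 0.637), CYP71B6 (0.858 and 0.452), AT3G54150 (0.857 and 0.535), AT2G18690 (0.854 and 0.51), AT1G65500 (0.85 and 0.322), AT2G38870 (0.849 and 0.376) and AT3G18250 (0.843 and 0.335). WRKY6, CYP71B6 and AT1G65500 were in both lists. WRKY6 is a transcription factor known from senescence and defence, and CYP71B6 is a cytochrome P450 that acts on indole-3-acetonitrile.

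The shared genes differed in how far they followed the pair. WRKY6 had a mean signal of 869 ± 97.6 in vte2 at day 3, against 292 ± 24.4 in vte1 and 318 ± 60.1 in WT, but 820.1 on vte2 replicate 3 of day 1. Its vte2 arrays of the 2 days thus overlapped, unlike those of the pair. CYP71B6 had 2520 ± 347 in vte2, against 1180 ± 188 in vte1 and 1160 ± 174 in WT. AT1G65500 had 1270 ± 357 in vte2, against 10 ± 4.39 in vte1 and 4.8 ± 1.49 in WT.

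Markers of other material were read beside these values. At day 3 the green tissue sum of every vte2 array lay below that of every WT array, as given above. The sum of 3 measured seed markers of 14 listed was 220 to 325 in vte2, 405 to 579 in vte1 and 422 to 587 in WT at day 3. That of 2 measured root markers of 8 was 653 to 1103 in vte2, 1171 to 1355 in vte1 and 574 to 1688 in WT. At day 1 the seed sum was 1027 to 1397 in vte2, 3396 to 20267 in vte1 and 256 to 3493 in WT. The root sum at day 1 was 436 to 4760 in vte2, 62 to 324 in vte1 and 674 to 1060 in WT. BAN, the 1 measured endosperm and seed coat marker of 4, lay below the filter with signals of 2 to 63. The part of such material in the signals of the oxidase genes was not tested.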

How the data were processed

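RNA from whole seedlings was measured on Affymetrix ATH1 microarrays. Each deposited value is the intensity of a probe set, linear and made with MAS5, according to the submitters' processing notes. Its version and scaling target were not given in the sources used here. All 18 columns were used. Of 22810 probe sets, 64 controls were left out, 22 was added before log2, and 15922 of 22746 with a mean above the 30th percentile were kept. No further normalization was done.

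Group means were fitted with limma 3.58.1 (lmFit, contrasts.fit, eBayes with a trend) in R 4.3.3 with data.table (version 1.17.8), and figures were drawn with Python 3.11.15 and matplotlib 3.10.9. P-values were two-sided, with Benjamini-Hochberg adjustment over all probe sets of a contrast. For 3 against 3 arrays the smallest p of an exact permutation test is 0.1. Of 13513 probe sets naming 1 gene, 13436 matched a RefSeq locus (TAIR10.1). The number of arrays limits the precision.

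The genes and lists were chosen with earlier results of these data known. Named were the pair, the measured genes of the family list and measured genes of the tryptophan and indole lists called in any contrast. For each member the 8 genes of highest r among those kept by the filter were named, while flanking genes were added later. Every r of same-numbered arrays was over 0.1 in the 3 comparisons at day 1 and in vte2 against WT at day 3. In these, replicate 3 had r of 0.37 to 0.59, and its highest r with another number was negative. Replicates 1 and 2 could match another number as well (WT and vte1 at day 1, replicate 2, 0.32 against 0.37). In the other comparisons not every r was over 0.1, and replicate 3 reached 0.2 (vte2 at day 1 with WT at day 3). No array pair was identical. The fit was tested on simulated data with independent noise on each array, so that test did not cover same-numbered arrays that deviate together.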

Additional observations from a re-analysis of the deposited data

Results flagged for a closer look

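For 4 genes the difference between genotypes changed between day 1 and day 3, by limma's test of that change (Benjamini-Hochberg). Each value is the difference at day 3 minus the difference at day 1, on the log2 scale. AT1G26390, next to AT1G26380, had 3.54 ± 0.58 for vte2 minus WT (adjusted p = 0.015) and 3.41 ± 0.58 for vte2 minus vte1 (adjusted p = 0.0029). AT1G26410, next to AT1G26420, had 3.66 ± 0.68 (adjusted p = 0.027) and 3.39 ± 0.68 (adjusted p = 0.0075). AT5G44440 had -2.57 ± 0.66 for vte2 minus vte1 (adjusted p = 0.028). AT2G04400, of tryptophan synthesis, had 1.94 ± 0.32 for vte2 minus WT (adjusted p = 0.018) and 1.18 ± 0.32 for vte2 minus vte1 (adjusted p = 0.039). Over all probe sets the change was called in 0.189% without a filter and 0.201% with it for vte2 minus WT, and in 3.29% and 5.29% for vte2 minus vte1.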

How the results depend on the processing

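Adding 100 in place of 22 signal units gave smaller differences of the pair at day 3: 3.14 and 2.48 for vte2 minus WT (AT1G26380 and AT1G26420), 3.16 and 2.06 for vte2 minus vte1, 0.42 for vte1 minus WT in AT1G26420, and 2.22 for vte2 day 3 minus day 1 in AT1G26420. Adding 5 gave 5.26, 3.28, 1.97 and 4.66 for AT1G26420 in those comparisons and -1.95 for WT day 3 minus day 1. The vte1 difference between the days of AT1G26380, 0.09 and not called, turned to -0.30 with median centring and -0.26 with quantile normalization. The cause of the last 2 values was not tested.

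Leaving out arrays, singly or as 1 replicate number in all groups (the second and the list counts were chosen after seeing the data), gave for AT1G26380 3.67 to 4.69 (vte2 minus WT, day 3), 3.74 to 4.54 (vte2 minus vte1), -0.84 to 0.83 (vte1 minus WT), 3.15 to 4.25 (vte2 day 3 minus day 1), -0.99 to 0.04 (WT day 3 minus day 1) and -0.46 to 1 (vte1 day 3 minus day 1), and at day 1 -0.54 to 0.58 (vte2 minus WT), 0.09 to 1.27 (vte2 minus vte1) and -1.15 to 0.04 (vte1 minus WT). For AT1G26420 the same 9 ranges were 3.77 to 4.54, 2.64 to 3.21, 0.88 to 1.56, 3.08 to 4.45, -1.56 to -0.59, -0.03 to 1.40, -1.52 to -0.10, -1.01 to 0.51 and -1.16 to 0.01.

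Family calls (pair left out) were counted among the 9 genes kept in the main fit, and among 20 without a filter. With 100 or 5 units or another normalization the filter was applied anew, so the genes counted could differ. The calls numbered 0 for vte2 against WT at day 3, against 3 without a filter and 4 with 100 units. With a replicate block within day (also added later) they numbered 1. For vte2 against vte1 at day 3 they numbered 2, against 5 without a filter, 6 with 100 units, 1 with 5 units or with no variance trend, and 0 to 2 with arrays left out. For vte2 day 3 against day 1 they numbered 7, against 12 without a filter, 11 with 100 units and 4 to 7 with arrays left out; for vte1 against WT at day 3, 0 and 1 with 100 units. The other ranges with arrays left out were 0 to 1 for vte2 and for vte1 against WT at day 3 and for vte2 against vte1 at day 1, 0 in both comparisons of a mutant with WT at day 1, 6 to 8 in vte1 and 5 to 8 in WT between the days. The 3 tryptophan and indole genes gave 2 calls for vte2 against WT at day 3, and 1 with 5 units, no variance trend, quantile normalization, median centring, only the arrays compared or no filter, and 0 to 2 with arrays left out; for vte1 against WT the count was 0, and 1 with the block within day.

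A replicate block changed no call of the pair; with it the vte2 minus WT difference of AT1G26380 at day 1 was 0.11 (adjusted p = 1, limma). Calls over all probe sets in vte2 against WT at day 3 numbered 372, and 43, 40 and 1200 without replicate 1, 2 or 3 in all groups; calls in vte2 against vte1 at day 1 numbered 831, and 1256 with the block. With arrays left out, the highest counts coming without replicate 3, the numbers of all probe sets called moved as widely, and the shares printed with them: 49 to 2923 calls for vte2 against vte1 at day 1, 0 to 2148 and 0 to 72 for vte1 and vte2 against WT at day 1, 0 to 1906 for vte1 against WT and 29 to 2229 for vte2 against vte1 at day 3.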
